A study of Mus musculus with 6 samples.

Results

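The genes described here are 49 mouse genes of DNA damage signalling and repair, measured in E0771 breast carcinoma cells with an empty control vector or an shRNA against lamin A/C. They were chosen by name as a list of checkpoint kinases and repair factors, and were matched exactly to the gene symbols of the deposited count table. Of the 49 genes, 48 were among the 10520 genes of the table, and Ddb2 was not. A minimum count kept 46 of them among the 8969 genes that were tested, and left out Trp53bp1 and Rad51c.

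Cells answer DNA damage with a chain of sensor and signalling proteins and a set of repair pathways that each deal with one kind of lesion. Broken ends activate the kinase ATM through the MRN complex and are joined directly by end joining or copied from the sister chromatid by homologous recombination, while single-stranded DNA at stalled replication forks activates the kinase ATR. Base excision repair removes small base lesions, nucleotide excision repair removes bulky ones, mismatch repair corrects replication errors and the Fanconi anaemia pathway clears interstrand crosslinks. Lamins A and C, the products of Lmna, are intermediate filament proteins that line the inner face of the nuclear envelope and bind chromatin.

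E0771 is a breast adenocarcinoma line from C57BL/6 mice. In the study, lamin A/C was lowered in tumour cells to ask how the nuclear lamina bears on migration, growth and metastasis. The cells were transduced with lentivirus carrying an empty control vector (shControl) or an shRNA against Lmna (shLmna), all were then selected and expanded in 3 µg/ml puromycin, and each group had 3 libraries. The knockdown libraries are titled shRNA4 and described as shLmna, and the cells were selected populations under the same drug rather than single clones. Their RNA was sequenced by MARS-seq, which captures the 3' ends of polyadenylated transcripts and gives every captured RNA its own molecular barcode (UMI), so that amplified copies count only 1 time. The labels do not say whether the 3 libraries of a group came from separate cultures, so p-values measure the spread between these libraries, which may be technical. The titles give the shControl libraries the plate numbers 13 to 15 and the shLmna libraries 16 to 18, and the effects of place and knockdown cannot be told apart. All knockdown libraries carry the same shRNA title, and the control vector holds no shRNA. Effects of this shRNA on other genes, and differences that arose between the selected populations, cannot be told apart from those of lower lamin A/C.

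The promoters of 4 genes of the ATR branch are shown because Atr passed the test described below, and because Atrip (its DNA-binding partner), Topbp1 (its activator) and Chek1 (the kinase it phosphorylates) act in one chain with it. Each sequence runs 5′ to 3′ on the strand of the gene, from 250 bases before to 50 bases after a transcription start in RefSeq, build GRCm38.p6. Capitals mark the letters of the CCAAT box (CCAAT or ATTGG), of the GC box bound by Sp1-type factors (GGGCGG or CCGCCC) and of the E2F motif (TTTGGCGC or TTTCGCGC, or their reverse complements), searched on both strands. The Atr promoter lies at chr9:95857347-95857646 on the forward strand, that of Atrip at chr9:109074075-109074374 on the reverse strand, that of Topbp1 at chr9:103305077-103305376 on the forward strand and that of Chek1 at chr9:36726609-36726908 on the reverse strand.
Atr: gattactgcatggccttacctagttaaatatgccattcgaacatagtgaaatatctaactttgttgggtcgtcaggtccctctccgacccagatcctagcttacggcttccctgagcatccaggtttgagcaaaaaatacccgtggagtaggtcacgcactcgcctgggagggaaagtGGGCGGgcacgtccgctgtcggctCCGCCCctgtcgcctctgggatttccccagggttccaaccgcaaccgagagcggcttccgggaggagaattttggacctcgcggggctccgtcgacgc
Atrip: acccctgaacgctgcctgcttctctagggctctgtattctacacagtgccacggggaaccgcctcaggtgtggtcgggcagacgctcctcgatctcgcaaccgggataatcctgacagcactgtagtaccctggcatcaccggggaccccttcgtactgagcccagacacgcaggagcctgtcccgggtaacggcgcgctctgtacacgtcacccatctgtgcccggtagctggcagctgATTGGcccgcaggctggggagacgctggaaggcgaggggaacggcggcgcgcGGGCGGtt
Topbp1: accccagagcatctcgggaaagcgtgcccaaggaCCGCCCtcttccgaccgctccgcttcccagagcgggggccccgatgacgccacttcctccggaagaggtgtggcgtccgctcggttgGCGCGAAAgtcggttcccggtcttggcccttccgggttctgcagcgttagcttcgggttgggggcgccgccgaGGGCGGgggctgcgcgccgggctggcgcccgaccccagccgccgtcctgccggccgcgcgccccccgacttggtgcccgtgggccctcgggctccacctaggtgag
Chek1: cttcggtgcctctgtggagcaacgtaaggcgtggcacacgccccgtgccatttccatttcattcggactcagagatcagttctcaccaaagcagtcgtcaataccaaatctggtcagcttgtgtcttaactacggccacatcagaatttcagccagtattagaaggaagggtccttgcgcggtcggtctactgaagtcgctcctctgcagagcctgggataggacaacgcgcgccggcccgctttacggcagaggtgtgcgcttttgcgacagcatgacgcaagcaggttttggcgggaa

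The Atr promoter held 2 GC boxes, the Atrip promoter 1 CCAAT box and 1 GC box, the Topbp1 promoter 2 GC boxes and 1 E2F match, and the Chek1 promoter none of these letters. The GC content of the 4 windows was 57.3%, 65.0%, 73.7% and 55.3% in the same order. RefSeq promoters were matched to 38 of the 49 genes, with 40 start sites between them. A CCAAT box was present in 20 of these 40 promoters (50%), compared with 37.5% of the promoters of tested genes and 37.4% of all mouse promoters of the same length. A GC box was present in 32 (80.0%), compared with 65.4% and 35.7%, and an E2F match in 3 (7.5%), compared with 1.69% and 0.813%. Fancd2, Xpc, Rad50, Ercc3, Rif1, Ddb2, Xrcc2, Prkdc, Nbn, Polb and Wrn had no entry. Only these exact letters were searched, so a promoter without a match, such as that of Chek1, can still hold an E2F site in other letters. The matches are descriptions of the sequence and were not tested for binding.

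The 6 libraries held between 1846208 and 3242051 UMIs, and replicates of a group were further apart than counting noise alone would put them (chi-square divided by its degrees of freedom, 5.52 to 8.77 over the pairs). Among epithelial markers, Krt8, Krt18 and Epcam were in the table and summed to between 261 and 324 CPM (UMIs scaled to the library's total) in every library, while Krt19, Cldn3, Cldn4 and Cldn7 were not in it. Most of this sum was Krt8, with 764, 787 and 534 UMIs in shControl and 814, 796 and 516 in shLmna. Epcam had 34, 46 and 25 UMIs in shControl and 14, 32 and 8 in shLmna. Krt18 had 19, 14 and 17 in shControl and 7, 20 and 7 in shLmna. Leukocyte, endothelial and fibroblast markers summed to at most 14.6, 3.16 and 6.12 CPM, from 2 of 6, 1 of 4 and 1 of 4 genes in the table. The libraries shControl replicate 3 and shLmna replicate 2 stood apart, because they held melanocytic transcripts. The genes Mlana, Pmel, Dct, Tyrp1 and Mitf, 5 of 6 listed melanocytic markers, summed to 1385 and 1607 UMIs there and to between 2 and 15 UMIs in the other 4 libraries, which is 730.2 and 614.1 CPM against 0.739 to 5.62. As 1 such library fell in each group, the results were also computed without both libraries, and the part that these transcripts had in any difference was not tested. The study also sequenced RNA of mouse melanoma cells, and the source of the melanocytic transcripts was not tested.

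**Figure D1:**
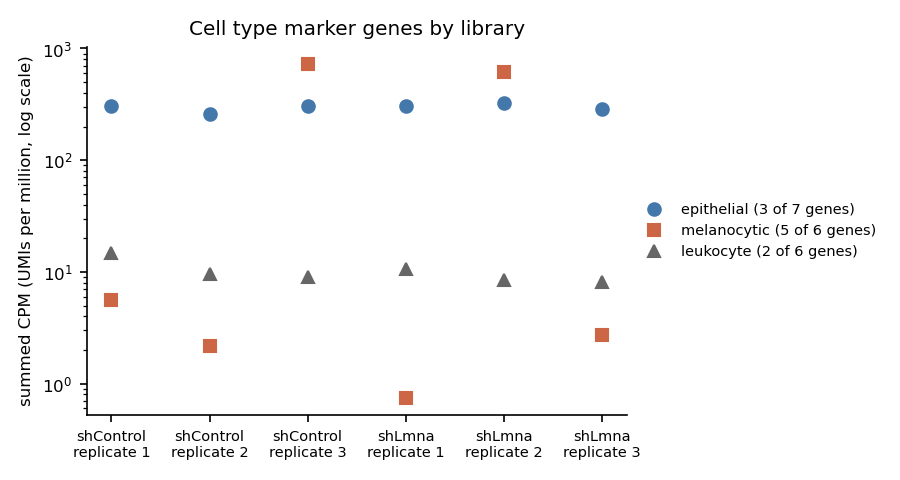
Summed CPM (log axis) of epithelial, melanocytic and leukocyte marker genes in each of the 6 libraries, 1 point per list and library. The melanocytic markers reached 730.2 in shControl replicate 3 and 614.1 in shLmna replicate 2 and were at most 5.62 elsewhere, while the epithelial markers, mostly Krt8, lay between 261 and 324 in all libraries.

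Lmna, the gene targeted by the shRNA, had 2066, 2794 and 1764 UMIs in the shControl libraries and 1035, 1023 and 713 in the shLmna libraries. Its normalised count, the UMI count divided by the library's scaling factor, averaged 2129 ± 153 over the shControl libraries (SD, n = 3) and 929 ± 15.5 over the shLmna libraries (SD, n = 3). Lmna was lower in every shLmna library than in any shControl library, the direction its label gives, with a log2 fold change of shLmna over shControl of -1.20 (SE 0.13, adjusted p = 3.55e-05, edgeR's quasi-likelihood test, adjusted over the 8969 genes by the Benjamini-Hochberg method). The same test and adjustment gave every adjusted p that follows, and a positive log2 fold change is higher in shLmna.

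Most DNA damage and repair genes showed no difference that passed the test. Rif1 and Atr were higher in shLmna and Xrcc2 and Ercc3 were lower, which makes 4 of 46 tested genes (8.70%) that passed at an adjusted p below 0.05. In the whole table the share was 13.7%, with 7.96% higher and 5.78% lower. Whether the share of repair genes differs from that of the table was not tested. By the study's criteria for differential expression (adjusted p below 0.05, a log2 fold change beyond 1 in size and a mean normalised count over 5) only Rif1 passed, and 5.71% of all tested genes did. Without shControl replicate 2, without shLmna replicate 2 or without shLmna replicate 3, Rif1 alone of the 46 passed the adjusted p. Calls over all tested genes also fell there, from 1232 of 8969 to 540 of 9174, 757 of 9116 and 651 of 9173. At an unadjusted p below 0.05 there were 8 of the 46 genes, where the share of all tested genes was 28.4%. Of the 48 genes in the table DESeq2 called Rif1 and Ercc3 only, and it called 9.8% of all genes it gave an adjusted p. Counts of 3 libraries against 3 did not overlap between the groups for 12 genes (26.1%), 4 higher and 8 lower in shLmna, compared with 32.5% of all tested genes. In RNA from a whole population of cells, fewer cells that express a gene and less RNA of it in each cell cannot be told apart.

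The 46 log2 fold changes ran from -0.86 to 4.12 with a median of -0.04, and the median of all tested genes was 0.0033. There were 20 positive and 26 negative values. For 37 of the 46 genes the 95% interval of the fold change lay inside 1 log2 unit in either direction, compared with 6432 of the 8969 tested genes. Changes of 1 log2 unit were outside the interval for these 37 genes, while smaller ones were hard to resolve at a median SE of 0.22.

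**Figure D2:**
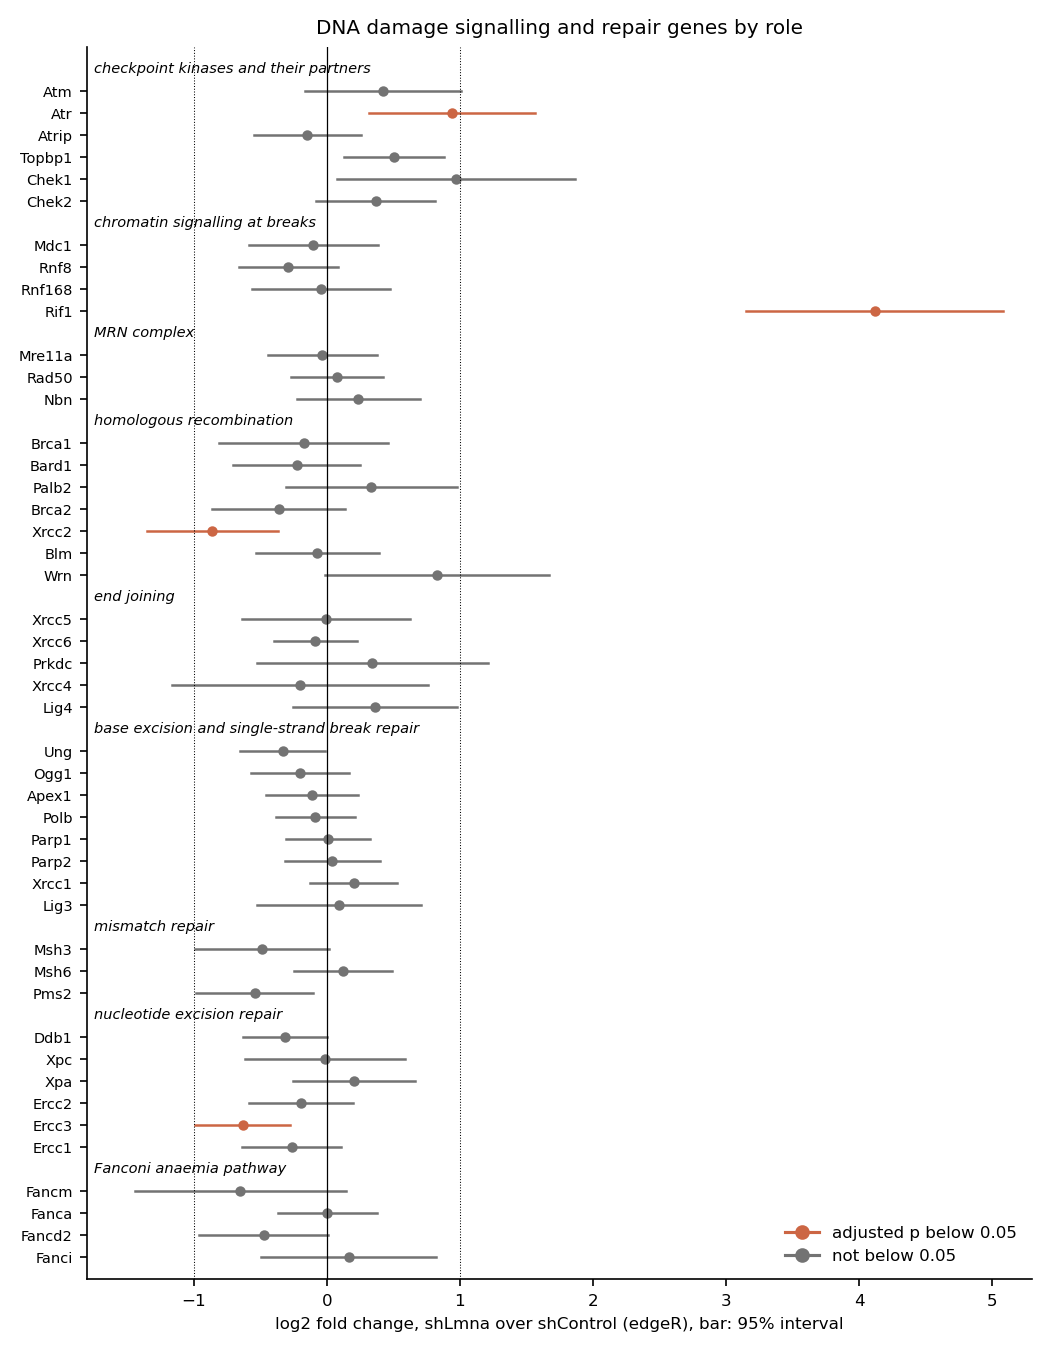
Log2 fold change of shLmna over shControl (points) with its 95% interval (bars) for the 46 tested genes, grouped by role, with dotted lines at 1 log2 unit in either direction. Rif1 stood at 4.12 and the other 45 genes between -0.86 and 0.97, and the 4 genes with an adjusted p below 0.05 are in orange.

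The checkpoint kinases and their partners were the group with the most positive values, 5 of 6, with a median log2 fold change of 0.46. Of them 1, Atr, passed the test, where 13.7% of all tested genes did. ATR is the kinase that responds to single-stranded DNA at stalled forks. Atr lies at chr9:95857597-95951781 on the forward strand and had 30, 20 and 19 UMIs in the shControl libraries and 36, 50 and 41 in the shLmna libraries. Its normalised counts were 28.7, 15.2 and 24.6 in shControl and 32.9, 44.8 and 53.2 in shLmna. Every shLmna library was above every shControl library, although the highest shControl and the lowest shLmna value were close. The log2 fold change was 0.94 (SE 0.29), with an adjusted p of 0.0448 by edgeR's test.

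The call for Atr lay near the threshold and was made in 7 of 15 alternative settings. It was lost without shControl replicate 2 (log2 fold change 0.68, adjusted p = 0.226 in edgeR's test), without shLmna replicate 2 (0.91, adjusted p = 0.106, edgeR) and without shLmna replicate 3 (0.79, adjusted p = 0.169, edgeR). Without both libraries that held melanocytic transcripts the fold change was 0.97 and the adjusted p 0.0728. A gene of the opposite strand, Gm16794, overlaps Atr, and whether the counting used the strand is not given in the sources used here. Such an overlap was also found for Trp53bp1, Ogg1, Apex1, Polb, Lig3, Msh6, Xpa, Ercc2, Ercc1, Fanca, Fancd2 and Fanci, so reads of these genes and of their partners cannot be told apart if strand was not used.

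Topbp1 encodes the scaffold that switches ATR on. Its normalised counts were 124, 136 and 155 in shControl and 160, 234 and 194 in shLmna. The groups did not overlap, and the log2 fold change was 0.50 (SE 0.18) with an adjusted p of 0.0716, which did not pass. It passed in 2 of 15 alternative settings, without shControl replicate 3 (0.58, adjusted p = 0.0404, edgeR) and with a term for the libraries with melanocytic transcripts (0.49, adjusted p = 0.0261, edgeR). Without both of these libraries it was at 0.44 (adjusted p = 0.154, edgeR), and without shLmna replicate 2 at 0.36 (adjusted p = 0.281, edgeR), the smallest value.

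Chek1, which encodes the effector kinase of ATR, was a gene of few molecules, with 5, 17 and 13 UMIs in shControl and 16, 25 and 24 in shLmna. Its normalised counts were 4.78, 12.96 and 16.8 in shControl and 14.6, 22.4 and 31.1 in shLmna, and the groups overlapped. Its log2 fold change of 0.97 was as large as that of Atr but had an SE of 0.42, a 95% interval from 0.08 to 1.86 and an adjusted p of 0.139 by edgeR's test. Atrip, the partner that brings ATR to single-stranded DNA, was at 104, 95.3 and 81.5 in shControl and at 96.9, 84.1 and 72.6 in shLmna, with a log2 fold change of -0.15, and its end overlaps that of Trex1 on the same strand. Of the 4 genes whose promoters are printed above, only Atr passed the test.

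Atm, which encodes the kinase that responds to double-strand breaks, had normalised counts of 16.3, 22.9 and 23.3 in shControl and 29.2, 26.0 and 28.5 in shLmna. The groups did not overlap, but the log2 fold change of 0.42 had an adjusted p of 0.343 by edgeR's test. Chek2, the effector kinase downstream of ATM, was at 96.6, 72.4 and 60.8 in shControl and 119, 87.7 and 90.8 in shLmna. These groups overlapped, and the log2 fold change was 0.37 (adjusted p = 0.280, edgeR).

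Rif1 changed more than any other gene of the list. RIF1 binds 53BP1 at broken ends, where it restrains their resection, and it also sets the timing of DNA replication. The gene lies at chr2:52072832-52122383 on the forward strand. It had 3, 3 and 1 UMIs in the shControl libraries and 28, 54 and 38 in the shLmna libraries. Normalised counts were 2.87, 2.29 and 1.29 in shControl and 25.6, 48.3 and 49.3 in shLmna, so the lowest shLmna library was far above the highest shControl library. The log2 fold change was 4.12 (SE 0.45, adjusted p = 3.59e-05, edgeR).

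Since the shControl libraries held only 7 Rif1 UMIs in all, against 120 in shLmna, the ratio of the normalised UMIs is the more direct measure, and it was 17.99 with an exact 95% counting interval from 8.47 to 45.7. Intervals of this kind cover counting error only. Without the libraries with melanocytic transcripts, 6 UMIs stood against 66, the ratio was 13.9 (95% counting interval 6.06 to 39.2) and the log2 fold change 3.77 (adjusted p = 3.88e-05, edgeR). The gene passed the test in 15 of 15 alternative settings, with log2 fold changes from 3.62 to 4.36.

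Rif1 was not alone in this pattern. By log2 fold change it ranked 31st of the 8969 tested genes and by p-value 49th, and 12 genes, Rif1 among them, had 3 UMIs or fewer in each shControl library and 25 or more in each shLmna library. The annotated 3' end of Rif1 had a GC content of 29.5%, the lowest of the repair genes, and 0.269% of tested genes had an end as low.

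**Figure D3:**
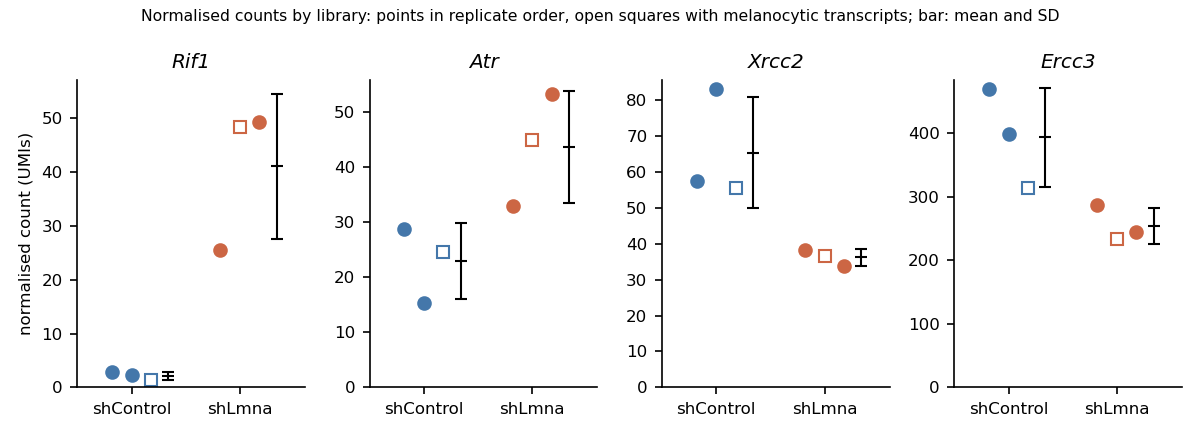
Normalised counts (UMIs, linear axes from 0) of Rif1, Atr, Xrcc2 and Ercc3, 1 point per library in replicate order, with open squares for the libraries that held melanocytic transcripts and bars for the mean and SD of each group. Rif1 was at most 2.87 in shControl and at least 25.6 in shLmna. The 4 genes were picked because they passed the test on these libraries. Their groups did not overlap, which held for 32.5% of all tested genes.

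The other factors that signal breaks on chromatin did not pass the test. Mdc1, the adaptor that reads phosphorylated histone H2AX, had a log2 fold change of -0.10. Rnf8 and Rnf168, the ubiquitin ligases that act after it, were at -0.29 and -0.04. Trp53bp1, which encodes the partner of RIF1, had 8, 9 and 5 UMIs in shControl and 8, 9 and 5 in shLmna, too few for the test, so that a difference was not detectable at this depth. All 3 members of the MRN complex, which holds broken ends and activates ATM, had overlapping groups and an unadjusted p above 0.05, with log2 fold changes of -0.04 for the nuclease gene Mre11a, 0.08 for Rad50 and 0.24 for Nbn. Of all tested genes, 32.5% had groups that did not overlap and 28.4% an unadjusted p below 0.05.

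Of the genes of homologous recombination, 7 of 8 were tested and 1, Xrcc2, passed as lower in shLmna, where 5.78% of all tested genes did. XRCC2 acts in the strand exchange step of recombination. The gene lies at chr5:25689812-25705825 on the reverse strand and had 60, 109 and 43 UMIs in shControl and 42, 41 and 26 in shLmna. The normalised counts were 57.4, 83.1 and 55.6 in shControl and 38.4, 36.7 and 33.7 in shLmna. Every shLmna library was below every shControl library, and shControl replicate 2 was well above the other shControl libraries.

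The log2 fold change of Xrcc2 was -0.86 (SE 0.23, adjusted p = 0.0220, edgeR). It passed the test in 11 of 15 alternative settings. Without shControl replicate 2 it was -0.64 (adjusted p = 0.151, edgeR), without shLmna replicate 2 -0.86 (adjusted p = 0.0625, edgeR) and without shLmna replicate 3 -0.81 (adjusted p = 0.0820, edgeR). Without both libraries with melanocytic transcripts it was -0.96 with an adjusted p of 0.0225.

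The BRCA genes and their partners did not pass. Brca1, whose product opens the way to recombination, had normalised counts of 31.6, 49.6 and 46.6 in shControl and 34.7, 53.7 and 22.0 in shLmna, with a log2 fold change of -0.17. Its partner Bard1 was at -0.23 and Palb2, which links BRCA1 to BRCA2, at 0.34. Brca2, whose product is needed for strand exchange, had 87.0, 91.5 and 55.6 in shControl and 63.0, 48.3 and 75.2 in shLmna, with overlapping groups and a log2 fold change of -0.36 (adjusted p = 0.338, edgeR).

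The helicase genes of this group were Blm and Wrn. Blm, which dissolves recombination intermediates, had a log2 fold change of -0.07. Wrn, the gene of Werner syndrome, had 7, 14 and 8 UMIs in shControl and 16, 26 and 8 in shLmna, and a log2 fold change of 0.83 with an SE of 0.39 (adjusted p = 0.182, edgeR). Its 95% interval, from -0.01 to 1.67, was among the widest of the list. Rad51c, which also acts in recombination, had between 2 and 10 UMIs per library and was not tested.

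None of the 5 end joining genes passed edgeR's test or DESeq2's, where 13.7% and 9.8% of all genes did. Of the 5 genes 0 had an unadjusted p below 0.05, compared with 28.4% of all tested genes, and their median log2 fold change was -0.01. Groups of a few genes are too small for 0 calls to set them apart from the table. Xrcc6 and Xrcc5 encode the Ku70 and Ku80 subunits that cap broken ends. Xrcc6 was among the steadier genes, with 193, 183 and 194 in shControl and 172, 182 and 183 in shLmna, a log2 fold change of -0.09 and a 95% interval from -0.40 to 0.22. Xrcc5 was at 32.5, 35.8 and 47.9 in shControl and at 40.2, 50.1 and 20.7 in shLmna, with a log2 fold change of -0.01 and a wider interval from -0.64 to 0.62. Prkdc, the gene of the DNA-dependent kinase that Ku recruits, had 10, 25 and 8 UMIs in shControl and 24, 22 and 6 in shLmna, with a log2 fold change of 0.34 and an interval from -0.53 to 1.21. The ligation factors Xrcc4 and Lig4 were at -0.20 and 0.36, and the interval of Xrcc4, from -1.16 to 0.76, was not informative about a change of 1 log2 unit downward.

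Base excision and single-strand break repair was the group with the narrowest intervals. None of its 8 genes passed edgeR's test or DESeq2's, where 13.7% and 9.8% of all genes did. An unadjusted p below 0.05 was found for 1 (Ung), compared with 28.4% of all tested genes. Of the 8 values 4 were positive and 4 negative, and all 8 intervals lay inside 1 log2 unit. Parp1, whose product senses single-strand breaks and marks them with poly(ADP-ribose), had normalised counts of 440, 406 and 340 in shControl and 434, 403 and 355 in shLmna. The groups overlapped fully, and the log2 fold change was 0.01 with a 95% interval from -0.31 to 0.32. Parp2, its relative, was at 0.04, the scaffold gene Xrcc1 at 0.20 and its ligase partner Lig3 at 0.09.

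The glycosylase genes, whose products cut out damaged bases, were negative. Ung, which removes uracil, had normalised counts of 178, 186 and 184 in shControl and 137, 151 and 147 in shLmna. The replicates were close to each other and the groups did not overlap, yet the log2 fold change was small, -0.33 (SE 0.15), and the adjusted p of 0.158 did not pass edgeR's test. Ogg1, which removes oxidised guanine, was at -0.20, the endonuclease gene Apex1 at -0.11 and the polymerase gene Polb at -0.09.

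Of 3 mismatch repair genes none passed edgeR's test or DESeq2's, where 13.7% and 9.8% of all genes did. An unadjusted p below 0.05 was found for 1 (Pms2), compared with 28.4% of all tested genes. Msh6, which takes part in recognising mispaired bases, had 146, 152 and 135 in shControl and 186, 130 and 156 in shLmna, with overlapping groups and a log2 fold change of 0.12. Msh3, which takes part in recognising larger loops, had 46.9, 38.1 and 44.0 in shControl and 34.7, 26.9 and 29.8 in shLmna, without overlap and at -0.49 (adjusted p = 0.191, edgeR). Pms2, the endonuclease subunit, had 72.7, 78.5 and 88.0 in shControl and 64.9, 51.9 and 45.4 in shLmna. These groups did not overlap either, and the log2 fold change was -0.54 (SE 0.21, adjusted p = 0.0956, edgeR). Pms2 overlaps Rsph10b on the same strand, so its counts are uncertain.

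Nucleotide excision repair had 6 tested genes of 7, of which 5 were negative and 1, Ercc3, passed the test, where 13.7% of all tested genes did. ERCC3 (XPB) is the translocase subunit of the factor TFIIH, which opens DNA around a lesion and also at promoters. Ercc3 lies at chr18:32240300-32270151 on the forward strand and had 490, 522 and 242 UMIs in shControl and 313, 260 and 188 in shLmna. Its normalised counts were 469, 398 and 313 in shControl and 286, 233 and 244 in shLmna, so every shLmna library was below every shControl library.

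The log2 fold change of Ercc3 was -0.63 (SE 0.17, adjusted p = 0.0208, edgeR), and the test was passed in 11 of 15 alternative settings. It was lost without shControl replicate 1 (-0.50, adjusted p = 0.0923, edgeR), shControl replicate 2 (-0.63, adjusted p = 0.0928, edgeR), shLmna replicate 2 (-0.57, adjusted p = 0.0826, edgeR) or shLmna replicate 3 (-0.60, adjusted p = 0.0911, edgeR). Without both libraries with melanocytic transcripts it was -0.70 with an adjusted p of 0.0104. Ercc2, which encodes XPD, the other helicase of TFIIH, was at 498, 433 and 309 in shControl and 435, 312 and 341 in shLmna, with overlapping groups and a log2 fold change of -0.19. Whether the 2 subunits differ in their change was not tested.

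The damage recognition genes of this pathway did not pass. Ddb1, which encodes the adaptor of the ultraviolet damage-binding ubiquitin ligase, had 3320, 3952 and 1952 UMIs in shControl and 2876, 2656 and 1554 in shLmna, a log2 fold change of -0.31 (SE 0.15) and an adjusted p of 0.182. Xpc, the lesion sensor, was at -0.01, and Xpa, which verifies the lesion, at 0.21. Ercc1, a subunit of the nuclease that cuts on the 5′ side, was at -0.26.

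None of the 4 Fanconi anaemia genes passed edgeR's test or DESeq2's, where 13.7% and 9.8% of all genes did. An unadjusted p below 0.05 was found for 0 of them, compared with 28.4% of all tested genes. Fancd2, which is ubiquitinated at crosslinks, had normalised counts of 40.2, 49.6 and 41.4 in shControl and 31.1, 30.4 and 33.7 in shLmna. All shLmna libraries were below all shControl libraries, and the log2 fold change was -0.48 (SE 0.23, adjusted p = 0.187, edgeR). Fanci, its partner, was at 0.16 and Fanca, a subunit of the core ligase, at 0.00 with an interval from -0.37 to 0.38. Fancm, the translocase that anchors the core complex, had 14, 22 and 9 UMIs in shControl and 8, 13 and 6 in shLmna, with a log2 fold change of -0.65 and an interval from -1.44 to 0.14.

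The fold changes of the repair genes moved with the GC content of the annotated 3' ends, the last 1000 bases of the transcript. Pearson's r between fold change and GC content was -0.48 over the 46 genes (Spearman's rho -0.36) and -0.34 without Rif1, while over 8933 tested genes r was -0.19 (rho -0.13). These are descriptions across genes, which share the same libraries and are not independent replicates. Ends with 35 to 40% GC held 9 repair genes with a median log2 fold change of 0.36, where the median of all 1244 genes was 0.13. From 40 to 45% the 14 repair genes had a median of -0.02, from 45 to 50% the 13 had -0.01, and at 50% or more the 9 had -0.19.

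Below 35%, Rif1 was the only repair gene, and the 466 tested genes had a median of 0.39 with 24.0% called higher. Chek1, Atr and Topbp1, at 35.9%, 38.9% and 39.8%, lay in the range from 35 to 40%. With GC content entered as an offset for each library, the log2 fold change of Rif1 was 3.62 (adjusted p = 5.21e-05, edgeR), that of Atr was 0.84 and no longer passed (adjusted p = 0.0542, edgeR), and Xrcc2 and Ercc3 stayed called at -0.82 and -0.57.

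**Figure D4:**
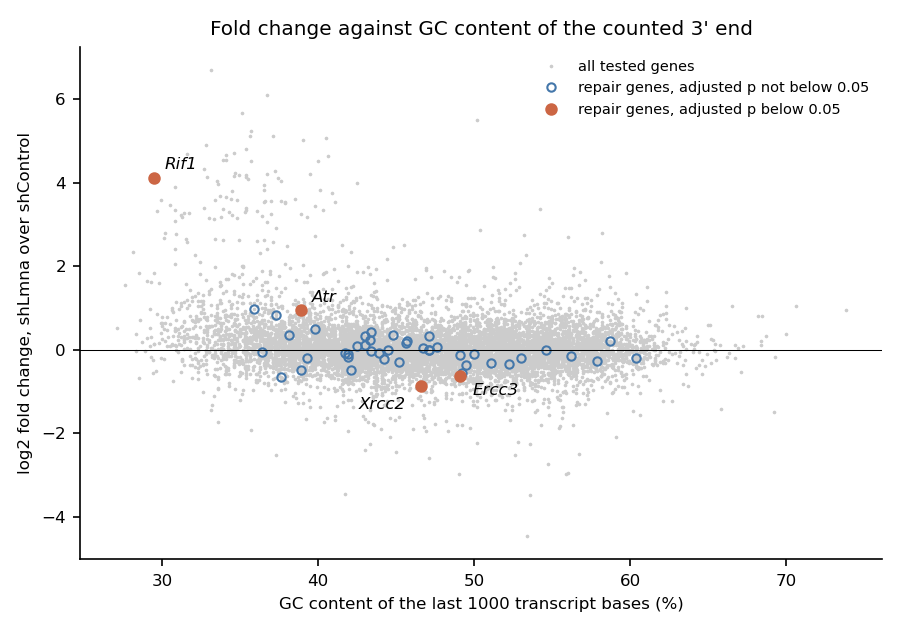
Log2 fold change of shLmna over shControl against the GC content (%) of the last 1000 transcript bases, with all tested genes in grey, repair genes as open circles and the 4 with an adjusted p below 0.05 as filled circles. Rif1 lies at 29.5% GC and 4.12, Atr at 38.9% and 0.94, and the other 44 repair genes between -0.86 and 0.97.

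Beyond the 49 genes, a wider list of 131 other repair genes was examined, of which 113 were tested. The share called was 7.08%, 4 higher and 4 lower, and the median log2 fold change was -0.08. The share in the whole table was 13.7%, and the difference between these shares was not tested. The count of 8 fell to 3 genes without shControl replicate 2, 4 without shLmna replicate 1 and 5 without shLmna replicate 2 or 3. In the same order, calls over all tested genes fell as well, from 1232 to 540, 866, 757 and 651. Smarcad1, a chromatin remodeller that promotes end resection, resembled Rif1. It had 0, 1 and 0 UMIs in shControl and 14, 32 and 20 in shLmna, a ratio of 69.3 with an exact 95% counting interval from 12.0 to 2777. Its adjusted p was 0.00016 by edgeR's test, and its end had 35.1% GC.

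The other higher genes of this list were Smc5, a subunit of the SMC5/6 complex (log2 fold change 0.98), the cohesin gene Rad21 (0.97) and Usp1, whose product removes ubiquitin from FANCD2 (0.85). Their 3' ends had a GC content of 31.1%, 32.6% and 34.4%. With the GC offset Smc5 was at 0.58 and did not pass (adjusted p = 0.176, edgeR), while Rad21 and Usp1 passed at 0.67 and 0.61. The lower genes were Cdc25a, the phosphatase that the checkpoint kinases target (-0.81), the annealing factor Rad52 (-0.71), Faap24, the partner of FANCM (-0.57), and the repair gene Alkbh2 (-0.52). For all 8 the groups did not overlap, which was a condition for naming them. Such groups were found for 26.5% of the 113 genes and for 32.5% of all tested genes. Without both libraries with melanocytic transcripts, Smc5 and Alkbh2 no longer passed, with adjusted p of 0.0695 and 0.132 in edgeR's test.

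**Figure D5:**
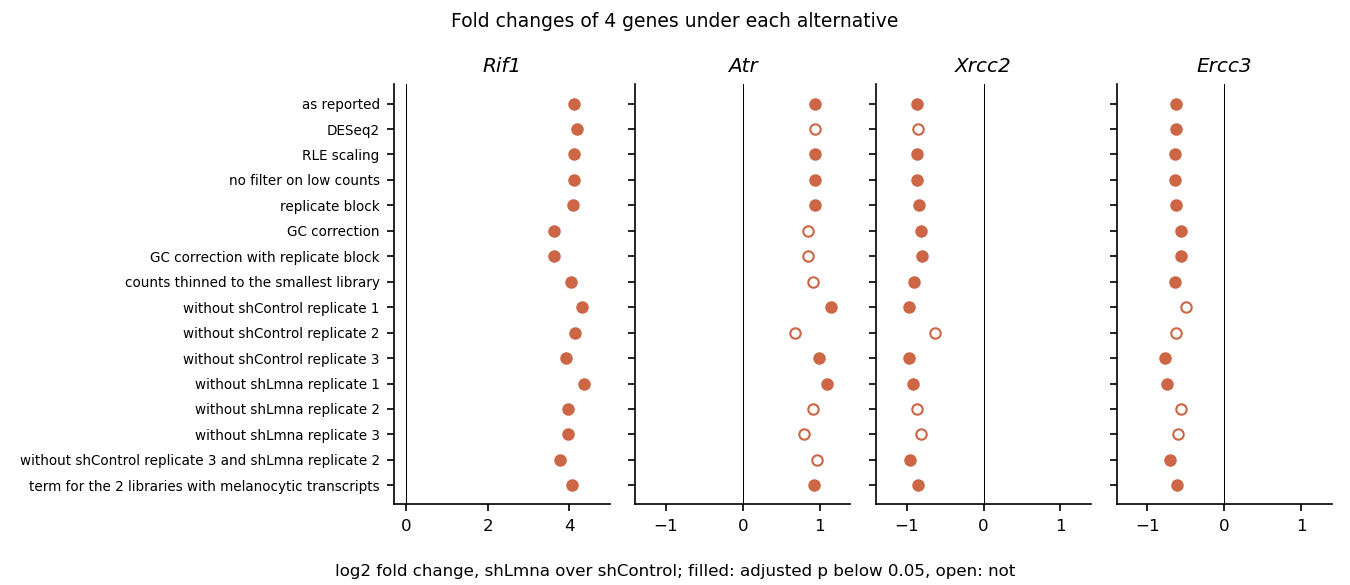
Log2 fold change of Rif1, Atr, Xrcc2 and Ercc3 (horizontal axes) as reported and under 15 alternative settings (rows), filled where the adjusted p was below 0.05. Every fold change kept its sign, and the call was kept in 15 settings for Rif1, 7 for Atr and 11 each for Xrcc2 and Ercc3.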

How the data were processed

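RNA of 3 shControl and 3 shLmna samples was measured by MARS-seq. After trimming with cutadapt and alignment to mm10 with STAR 2.4.2a, the authors assigned UMIs to the terminal 1000 bases of RefSeq genes, extended by 100 bases, and the deposited counts are whole numbers without normalization. The authors' deposited log2 values after ComBat and their DESeq2 comparison (mean signal, fold changes and p-values) were not used. Of the columns of values per library, 0 were left unmapped.

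The counts were analysed with edgeR 4.0.16 in R 4.3.3. Genes passing filterByExpr at a minimum count of 10 were scaled by TMM and tested with the quasi-likelihood test. P-values were adjusted by the Benjamini-Hochberg method, and the replicate number was no term of the fit. Normalised counts are UMIs divided by the effective library size relative to the geometric mean over libraries. DESeq2 1.42.0 was an alternative, and the scripts were tested on simulated data with known answers. The GC correction fitted a loess curve of span 0.3 and degree 2 per library as an offset. Coordinates and 3' ends came from GENCODE M21 (GRCm38), which gave a transcript for 10468 of 10520 genes, 323 of them through an older symbol. GC contents and overlaps are those of the longest transcript there, preferring protein-coding ones, and its end can differ from the RefSeq end that was counted. Paralogues and pseudogenes were not searched. Python 3.11.15, pandas 2.3.3 and scipy 1.17.1 were used for motifs and intervals.

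Every repair gene of the list may be named. Genes with an adjusted p below 0.05 are given with each library's values, defining genes of each role by their values, up to 8 called genes of the wider repair list, and at most 3 called genes of other lists. Beyond this rule, Mdm2, a further called gene of its list, and Mcm6, not called in the main fit, are named too. The genes, lists and tests were chosen with earlier results of these data known. The added alternatives and the genes Topbp1, Ung, Msh3, Pms2, Fancm and Wrn were singled out after their values were seen. Same-numbered libraries of the 2 groups deviated with correlations of 0.35, -0.11 and 0.0052, so the numbers were not taken to pair the samples. With 3 libraries against 3, single genes were tested only in the fit across all genes. The depth of 1846208 to 3242051 UMIs limits genes of few UMIs most.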

Additional observations from a re-analysis of the deposited data

How the results depend on the processing

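The median log2 fold change of the repair genes moved by less than the spread between libraries in every alternative, no fold change that passed the test changed sign, and Lmna and Rif1 passed in all 15. With DESeq2, 1 repair gene was higher and 1 lower, 5 of the wider repair list passed, and all genes gave 1010 calls. With the GC correction 1 repair gene was higher and 13 of the wider list passed, while calls over all genes also rose, from 1232 to 1407 of 8933. With the GC correction and the replicate block together, or with counts thinned to the smallest library, 1 repair gene was higher as well. The settings for the libraries with melanocytic transcripts were chosen after seeing the data: without both libraries 1 repair gene was higher, and with a term for them 17 of the wider list passed. The causes were not tested. Leaving out 1 library at a time gave 1 to 3 repair genes higher, 0 to 2 lower, 1 to 2 differentially expressed by the study's criteria (the second was Atr, without shControl replicate 1 or shLmna replicate 1) and 3 to 11 of the wider list. Over all tested genes, the calls fell from 1232 to 794 and 540 without shControl replicate 1 or 2. They fell to 866, 757 and 651 without shLmna replicate 1, 2 or 3. The calls rose to 1580 without shControl replicate 3 and to 1868 with the term. The labels do not say what replicate numbers share. With the replicate block, 2 repair genes were higher and 2 lower, Atr had an adjusted p of 0.0494 (edgeR), all genes gave 1350 calls, and no call among the 49 repair genes changed. The depth limited genes of few UMIs, such as Trp53bp1, Rad51c, Chek1, Wrn and Prkdc.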

Other observations

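Genes that p53 and DNA damage are known to induce were lower or did not pass the test. Of 20 listed genes 14 were tested, 0 were higher and 4 (Cdkn1a, Gadd45a, Bbc3 and Mdm2) were lower, where 5.78% of all tested genes were lower, with a median log2 fold change of -0.30 compared with 0.0033 over all tested genes. In edgeR's test, 7 of the 14 had an unadjusted p below 0.05, compared with 28.4% of all tested genes. DESeq2 called 0 higher and 3 lower, Cdkn1a, Gadd45a and Mdm2, but not Bbc3 (adjusted p = 0.102, DESeq2). Cdkn1a, which encodes the cell cycle inhibitor p21, had 295, 317 and 175 UMIs in the shControl libraries and 99, 112 and 66 in the shLmna libraries, with a log2 fold change of -1.44 (SE 0.16, adjusted p = 4.57e-05, edgeR, Benjamini-Hochberg adjusted). Every shLmna library was below every shControl library. The stress gene Gadd45a was at -0.62 (adjusted p = 0.0340, edgeR) and the pro-apoptotic gene Bbc3 at -0.61 (adjusted p = 0.0410, edgeR), both without overlap between the groups. Mdm2, which encodes the ubiquitin ligase of p53, was at -0.57 (adjusted p = 0.0252, edgeR). Without both libraries that held melanocytic transcripts, Cdkn1a was at -1.56 (adjusted p = 1.09e-05, edgeR) and was the only gene of the list to pass, with Gadd45a at -0.58 and Bbc3 at -0.60.

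Of 23 listed genes of S phase, 20 were tested and 0 passed with edgeR or with DESeq2, where 13.7% and 9.8% of all genes did. In edgeR's test 4 had an unadjusted p below 0.05, compared with 28.4% of all tested genes, and the median log2 fold change was -0.11. Without both libraries with melanocytic transcripts 1, Mcm6, chosen after its value was seen, was lower (log2 fold change -0.60, adjusted p = 0.0251, edgeR). Of 20 listed genes of mitosis, 18 were tested, with a median of 0.19. In edgeR's test 1 was called higher and 1 lower (11.1%), where 13.7% of all tested genes were called. Ccna2, the gene of cyclin A2, was higher at 0.82 (adjusted p = 0.00323, edgeR), and Cdc20, an activator of the anaphase-promoting complex, was lower at -0.50 (adjusted p = 0.0376, edgeR). Without both of those libraries Ccna2 was at 0.95 and passed, and Cdc20 was at -0.52 and did not (adjusted p = 0.0531, edgeR).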
